A study of Mus musculus with 24 samples.

Results

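Lipoprotein lipase (Lpl), the proteins that regulate it and the proteins that carry its fatty acids into the cell were followed in brown adipose tissue (BAT) across labelled genotype and temperature. The 10 genes were taken by symbol from a count table of 12615 genes, namely Lpl, Angptl4, Gpihbp1, Lmf1, Vldlr, Cd36, Slc27a1, Fabp3, Fabp4 and Fabp5. All 10 were found, and all 10 passed the filter on low counts in all 24 libraries. The 24 mice formed 4 groups of 6. All carried TBLR1 fl/fl;TBL1 fl/fl alleles of both corepressor genes and all received tamoxifen 3 weeks before the temperature protocol started. BATdKO mice also carried Ucp1CreERT2, a tamoxifen-inducible recombinase under the promoter of the brown adipocyte gene Ucp1, so that other cells of the tissue should keep both genes, and Cre- mice lacked it. Mice raised at 22°C went straight to 30°C for 4 days or were brought down through 18, 16 and 12°C to 8°C for 6 days. The labels describe females and an age at tamoxifen of 5 years, whereas the study's own text describes males, an age in weeks and a shorter stay at 8°C, and groups were therefore taken only by genotype and temperature.

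LPL is made by adipocytes, folded with the help of LMF1, carried across the capillary wall by the endothelial protein GPIHBP1, and there splits the triglycerides of circulating lipoproteins into fatty acids. ANGPTL4, which fasting induces, inactivates LPL. The released fatty acids enter adipocytes with the help of CD36 and the transport protein FATP1 (gene Slc27a1) and are bound inside the cell by the FABP proteins, and BAT in the cold burns them for heat.

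Libraries held 699703 to 11527643 counts (median 6644364), and the shallowest, Cre- mouse m4 at 30°C, had as few as 5 counts on a member. Levels are given as CPM, counts scaled to the TMM-normalized library size. The kit makes 1 tag near the 3′ end of a transcript, so CPM is a level per transcript and needs no division by length. Both genes named in the knockout had higher levels under the BATdKO label: at 8°C Tbl1xr1, which encodes TBLR1, stood at 39.8 ± 4.01 CPM in BATdKO and 20.9 ± 2.24 CPM in Cre- mice (SD, n = 6 each; log2 fold change 0.92, adjusted p = 0.00348). Tbl1x, which encodes TBL1, stood there at 53.8 ± 6.75 CPM in BATdKO and 40.7 ± 1.88 CPM in Cre- mice (log2 fold change 0.39, adjusted p = 0.0633). A 3′ tag can lie outside a deleted part, and which exons are floxed is not given in the sources used here, so these tags do not check the labels, and groups are named as labelled throughout. Whether the genotype labels were exchanged as a whole was not tested, and an exchange would reverse the direction of each difference between genotypes. At 30°C, Cre- mouse m6 had the highest Tbl1xr1 level of its group (38.6 CPM) and BATdKO mouse m6 the lowest of its own (17.0 CPM), levels that resemble those of the other genotype. Whether these 2 libraries were exchanged was not tested, and an exchange would change the group levels at 30°C and the changes with cold. Differences between genotypes at 30°C are therefore also given without both libraries. Ucp1 was detected in every library, with mean levels of 177, 290, 1540 and 1690 CPM in Cre- at 30°C, BATdKO at 30°C, Cre- at 8°C and BATdKO at 8°C. Transcripts of liver type were also abundant in every library labelled brown fat: 8 hepatocyte markers summed to 25800 to 40600 CPM, with Alb (albumin) at 5690 to 14400 CPM beside Adipoq (adiponectin) at 80.4 to 398 CPM. None of the 8 passed the test in any comparison, and their part in the members' levels was not tested. The numbers of the count columns named in the labels form separate ranges for the 30°C and the 8°C mice. What these numbers stand for is not given, and any batch that follows them cannot be told apart from temperature. In bulk tissue fewer cells of a type cannot be told apart from less RNA per cell.

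Among the 24 mice together, Fabp4 was the most abundant member (mean 1220 CPM, rank 76 of the genes), followed by Lpl (799 CPM, rank 101), Cd36 (164 CPM), Fabp5 (86.7 CPM) and Angptl4 (64.3 CPM). Vldlr (29.6 CPM), Gpihbp1 (28.7 CPM), Fabp3 (21.7 CPM) and Lmf1 (21.6 CPM) lay close together, and Slc27a1 was lowest at 8.79 CPM.

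The genotypes were compared at each temperature and the temperatures within each genotype, the interaction of both was tested as well, and a gene was called at an adjusted p under 0.1. At 8°C, 4 of the 10 members were called between the genotypes, where 1.82% of the 12485 tested genes were. Because the members were chosen with earlier results of these data known, a share above that of all genes is no independent evidence. Lpl, Angptl4 and Fabp3 were higher in BATdKO mice (0.697% of all genes were called higher) and Slc27a1 was lower (1.12% lower). At 30°C, 0 members were called between the genotypes by edgeR, where the background was 0.0%. There 3 members had an unadjusted p under 0.05 (10.4% of all genes, 1303), and DESeq2 called 1 member and 90 genes. From 30°C to 8°C, 4 members were called in Cre- mice (background 9.15%), of which 3 were higher in the cold (background 5.57%) and 1 lower (3.59%). In BATdKO mice cold changed 3 members (background 7.07%), 2 of them upward (3.76%) and 1 downward (3.31%). The interaction called 0 members in edgeR's test (background 0.0961%), with 4 at an unadjusted p under 0.05 (8.05% of all genes, 1005), and DESeq2 also called 0 members there, among 51 genes. Groups did not overlap for 3 members between genotypes at 8°C (1.95% of all genes), 0 between genotypes at 30°C (0.296%), 0 for cold in Cre- mice (2.93%) and 2 for cold in BATdKO mice (2.99%). The median log2 fold change of the 10 members was -0.02 between genotypes at 8°C, 0.15 between genotypes at 30°C, 0.51 for cold in Cre- mice and 0.04 for cold in BATdKO mice, against medians within 0.02 of 0 over all tested genes.

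**Figure D1:**
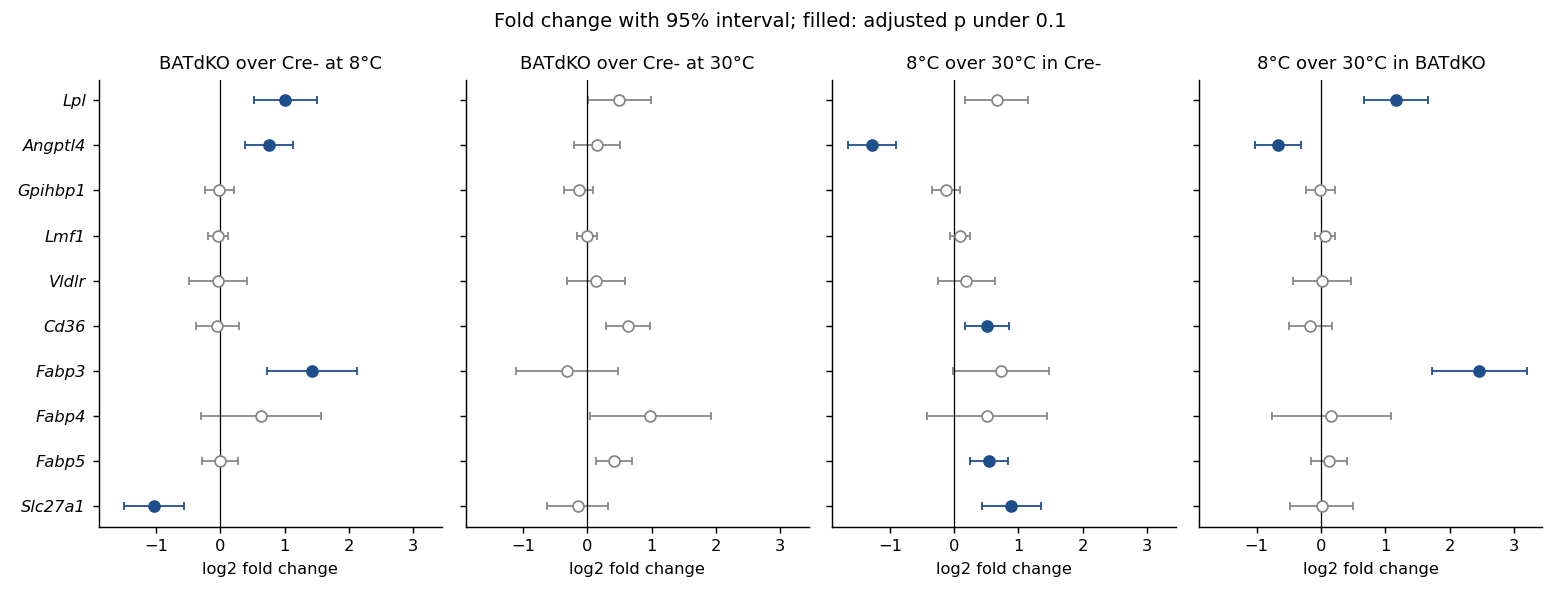
Log2 fold change of the 10 members (rows) in 4 comparisons (panels), with intervals of 1.96 standard errors to each side, from edgeR's fit to 24 mice; filled points passed the adjusted threshold of 0.1. Lpl, Angptl4 and Fabp3 lie to the right of 0 and Slc27a1 to the left in the comparison of genotypes at 8°C, Angptl4 lies to the left of 0 in both cold comparisons, and Gpihbp1 and Lmf1 stay near 0 in all 4.

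Lpl (ENSMUSG00000015568, chromosome 8 of GRCm38 from 68880491 to 68907448, + strand) was highest in BATdKO mice in the cold. Its lowest, median and highest levels were 267, 320 and 812 CPM in Cre- mice at 30°C, 299, 656 and 947 CPM in BATdKO mice at 30°C, 545, 733 and 819 CPM in Cre- mice at 8°C, and 993, 1320 and 2140 CPM in BATdKO mice at 8°C. Every BATdKO mouse at 8°C lay above every mouse of the other 3 groups, whereas those 3 groups overlapped one another. At 8°C the genotypes differed 2.01-fold (log2 fold change 1.01, SE 0.25, adjusted p = 0.0434; two-sided exact permutation p = 0.00216, the least possible with 6 mice against 6). The call was lost without BATdKO mouse m1, the highest (log2 fold change 0.86, adjusted p = 0.128), without Cre- mouse m5 (adjusted p = 0.102), and with robust dispersion estimates (adjusted p = 0.116).

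Cold raised Lpl 2.24-fold in BATdKO mice (log2 fold change 1.17, SE 0.25, adjusted p = 0.00581), a call that no left-out mouse ended. In Cre- mice the log2 fold change for cold was 0.66 (SE 0.25) and missed the threshold (adjusted p = 0.13). At 30°C Cre- mice m1 (647 CPM) and m6 (812 CPM) stood apart from the other 4 (267 to 341 CPM), and without mouse m6 the cold change in Cre- mice was 0.93 (adjusted p = 0.0134). It also passed without Cre- mouse m1 or without BATdKO mouse m6 at 30°C (adjusted p = 0.0759 in each). The difference between the genotypes in their change with cold was 0.51 (95% interval -0.19 to 1.2, adjusted p = 0.75), so that a larger effect of cold in BATdKO mice was not shown.

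Angptl4 (ENSMUSG00000002289, chromosome 17 from 33773750 to 33781830, - strand) moved the opposite way with cold. Its lowest, median and highest levels were 38.2, 85.2 and 109 CPM in Cre- mice and 55.6, 97.0 and 114 CPM in BATdKO mice at 30°C, and 29.2, 30.9 and 40.7 CPM in Cre- mice and 44.4, 57.3 and 71.0 CPM in BATdKO mice at 8°C. In the cold every BATdKO mouse lay above every Cre- mouse, and 5 of the 6 Cre- mice at 30°C lay above all Cre- mice at 8°C. Between genotypes at 8°C the level was 1.69-fold higher in BATdKO mice (log2 fold change 0.76, SE 0.19, adjusted p = 0.0434; two-sided exact permutation p = 0.00216). The call was lost, narrowly, without BATdKO mouse m1 (adjusted p = 0.102) or Cre- mouse m5 (adjusted p = 0.101).

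In Cre- mice cold lowered Angptl4 2.43-fold (log2 fold change -1.28, SE 0.19, adjusted p = 4.72e-05). Cre- mouse m3 at 30°C, with 38.2 CPM, was the only one of its group within the range of the cold mice. In BATdKO mice the fall was 1.59-fold (log2 fold change -0.67, SE 0.18, adjusted p = 0.0323), and both calls held whichever mouse was left out. The change with cold was less negative in BATdKO mice by 0.61 (95% interval 0.09 to 1.12), with an unadjusted p of 0.0283 and an adjusted p of 0.551. At 30°C the genotypes differed by 0.15 (SE 0.18, adjusted p = 0.854), and by 0.37 (SE 0.17, unadjusted p = 0.0426, adjusted p = 0.341) without both mice m6.

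**Figure D2:**
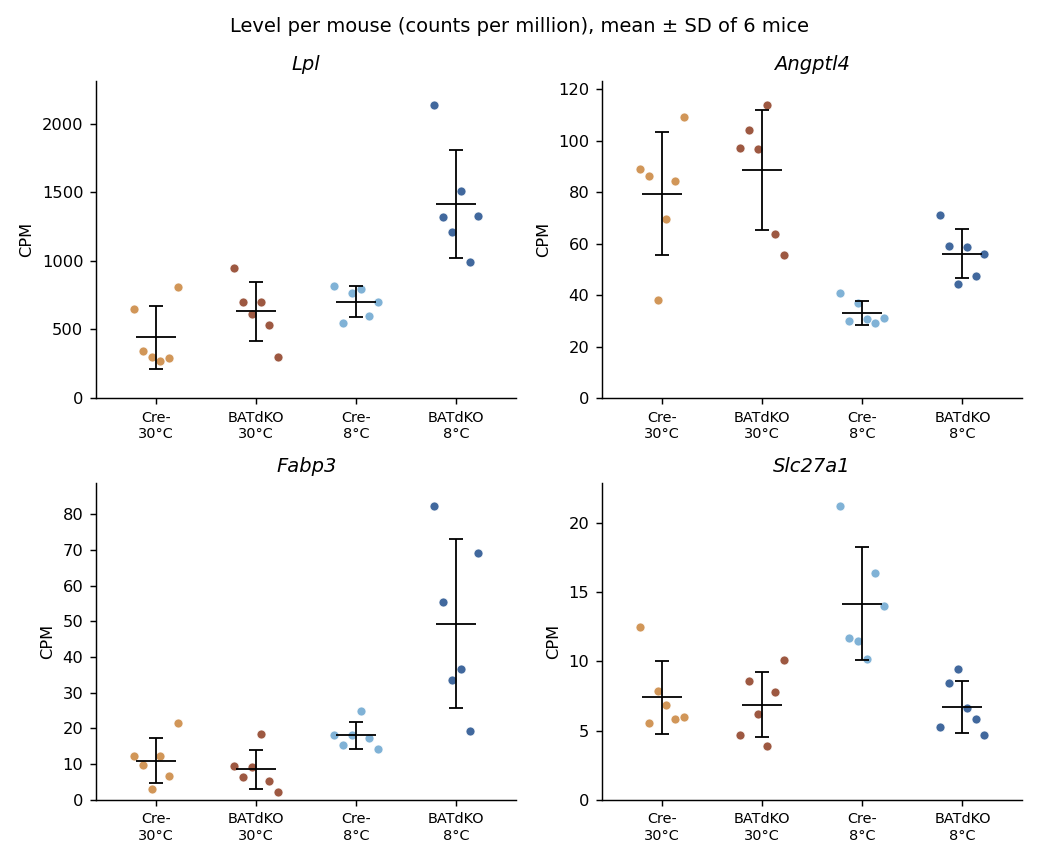
CPM per mouse (points; vertical axes start at 0) for the 4 members called between genotypes at 8°C, in the 4 groups of 6 mice, with mean and SD as bars. BATdKO mice at 8°C lie above all other mice for Lpl, above Cre- mice at 8°C but mostly below the 30°C mice for Angptl4, highest and most spread for Fabp3, and below all Cre- mice at 8°C for Slc27a1.

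Lpl and Angptl4 were then set against each other within each library, which does not depend on the scaling between libraries. For every 100 Lpl counts there were 20.0 ± 7.49 Angptl4 counts (SD, n = 6) in Cre- mice and 14.6 ± 3.05 in BATdKO mice at 30°C, and 4.74 ± 0.542 in Cre- mice and 4.05 ± 0.538 in BATdKO mice at 8°C. The ratio ranged from 10.3 to 28.9 over the 12 mice at 30°C and from 3.32 to 5.46 over the 12 at 8°C, so that temperatures did not overlap and genotypes at 8°C did. Temperature thus separated all mice by this ratio, whereas the genotypes, which differed in both genes at 8°C, overlapped in it.

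**Figure D3:**
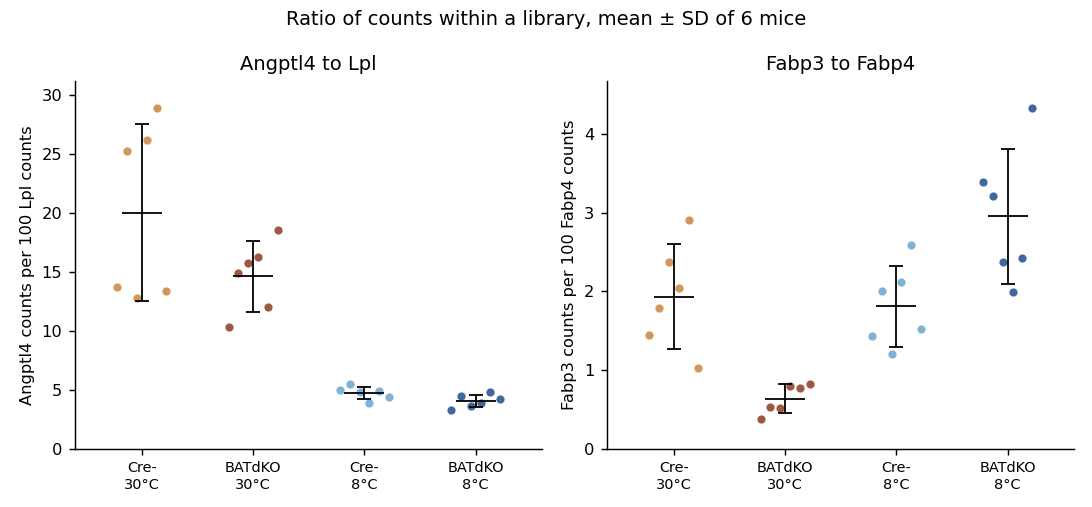
Counts of Angptl4 per 100 counts of Lpl (left) and of Fabp3 per 100 counts of Fabp4 (right) in each library, with mean and SD of 6 mice as bars; vertical axes start at 0. The Angptl4 to Lpl ratio lies between 3.32 and 5.46 in every mouse at 8°C and at 10.3 or more in every mouse at 30°C, and the Fabp3 to Fabp4 ratio is at most 0.821 in BATdKO mice at 30°C and at least 1.03 in all other mice.

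The genes whose proteins fold LPL and carry it to the capillary were called in no comparison. Gpihbp1 (ENSMUSG00000022579, chromosome 15 from 75596628 to 75599481) had mean levels of 30.2, 28.2, 28.4 and 28.1 CPM in Cre- at 30°C, BATdKO at 30°C, Cre- at 8°C and BATdKO at 8°C, and log2 fold changes between -0.13 and -0.01 in the 4 comparisons of groups. Its 95% interval between genotypes at 8°C was -0.24 to 0.21. Lmf1 (ENSMUSG00000002279, chromosome 17 from 25579085 to 25662826), the lipase maturation factor, had 21.7, 20.9, 22.3 and 21.7 CPM and was the steadiest member, with an interval of -0.19 to 0.12 between genotypes at 8°C and a coefficient of variation of 3.25% among BATdKO mice at 8°C. GPIHBP1 is made by capillary endothelium, and 11 endothelial markers were tested. In Cre- mice 4 of them (Kdr, Pecam1, Emcn and Flt1) were called higher at 8°C, where 5.57% of all genes were. In BATdKO mice 2 (Emcn and Kdr) were called higher, where 3.76% of all genes were. None was called lower, but called or not, the log2 fold changes were mixed: 6 positive and 5 negative in Cre- mice, 7 positive and 4 negative in BATdKO mice. For every 100 counts of Pecam1, an endothelial adhesion molecule, Gpihbp1 had 101 ± 13.7 and 89.3 ± 19.0 counts (SD, n = 6) at 30°C and 70.6 ± 14.9 and 74.3 ± 6.66 at 8°C, in Cre- and BATdKO mice in turn, and the temperatures overlapped within each genotype.

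Vldlr (ENSMUSG00000024924, chromosome 19 from 27216484 to 27254231), a receptor that binds triglyceride-rich lipoproteins beside LPL, was called in no comparison. Its means were 26.4, 30.0, 31.0 and 31.0 CPM in the same order, with single mice from 15.2 to 45.7 CPM. The wide spread among mice leaves an interval of -0.48 to 0.41 in log2 between genotypes at 8°C.

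Of the members that bring fatty acids into the cell, Slc27a1 differed between genotypes at 8°C and Cd36 did not pass the test there. Slc27a1 (ENSMUSG00000031808, chromosome 8 from 71568882 to 71587302, + strand), which encodes FATP1, had lowest, median and highest levels of 5.54, 6.40 and 12.5 CPM in Cre- mice and 3.91, 7.00 and 10.1 CPM in BATdKO mice at 30°C. At 8°C they were 10.2, 12.9 and 21.2 CPM in Cre- mice and 4.69, 6.26 and 9.45 CPM in BATdKO mice. Cre- mice in the cold thus stood above every BATdKO mouse at 8°C, and the other 3 groups overlapped. Between genotypes at 8°C the level was 2.05-fold lower in BATdKO mice (log2 fold change -1.03, SE 0.24, adjusted p = 0.0251; two-sided exact permutation p = 0.00216), and the call held whichever mouse was left out. Cold raised it in Cre- mice (log2 fold change 0.89, SE 0.23, adjusted p = 0.0186), while in BATdKO mice the change was 0.01 (95% interval -0.48 to 0.5). The interaction was -0.88 (unadjusted p = 0.0161) and did not pass after adjustment (adjusted p = 0.497). The counts behind these levels were low, from 5 to 159 per library.

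Cd36 (ENSMUSG00000002944, chromosome 5 from 17781690 to 17888801), the fatty acid translocase, had lowest, median and highest levels of 65.1, 134 and 170 CPM in Cre- mice at 30°C and 143, 183 and 264 CPM in BATdKO mice at 30°C. At 8°C these were 132, 175 and 214 CPM in Cre- mice and 138, 158 and 228 CPM in BATdKO mice, and all 4 groups overlapped. Cold raised it 1.42-fold in Cre- mice (log2 fold change 0.51, SE 0.17, adjusted p = 0.0832), but 6 of the 24 fits that left out a mouse lost the call, each of them without another Cre- mouse, and so did robust dispersion estimates (adjusted p = 0.125) and a fit to the 2 groups alone (adjusted p = 0.128). The difference between genotypes at 30°C was 0.63 (SE 0.17; unadjusted p = 0.00121, adjusted p = 0.163), the smallest p of any member at 30°C. It passed with DESeq2 (adjusted p = 0.0736) and without Cre- mouse m6 (adjusted p = 0.0225). With robust dispersion estimates the adjusted p rose to 0.279, and in a fit to the 2 groups alone to 0.588. At 8°C the genotypes differed by -0.05 (95% interval -0.38 to 0.29), and the interaction was -0.67 with an unadjusted p of 0.0103 and an adjusted p of 0.473.

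Of the intracellular binding proteins, Fabp3 (ENSMUSG00000028773, chromosome 4 from 130308595 to 130315463, + strand), the form of heart and muscle, had the largest log2 fold change of any member both between genotypes at 8°C and with cold in BATdKO mice. Its lowest, median and highest levels were 2.97, 10.9 and 21.5 CPM in Cre- mice and 2.25, 7.84 and 18.3 CPM in BATdKO mice at 30°C, and 14.2, 17.8 and 24.9 CPM in Cre- mice and 19.3, 46.1 and 82.3 CPM in BATdKO mice at 8°C. All BATdKO mice at 8°C but m5 (19.3 CPM) lay above every other mouse. Between genotypes at 8°C the level was 2.67-fold higher in BATdKO mice (log2 fold change 1.42, SE 0.36, adjusted p = 0.0472; two-sided exact permutation p = 0.00433). The call was lost without BATdKO mouse m1 (adjusted p = 0.118) or m6 (adjusted p = 0.121), without Cre- mouse m6 (adjusted p = 0.108), and with robust dispersion estimates (adjusted p = 0.124). Cold raised Fabp3 5.50-fold in BATdKO mice (log2 fold change 2.46, SE 0.38, adjusted p = 0.000161). In Cre- mice the change was 0.73 (SE 0.38, adjusted p = 0.314), and 1.12 without Cre- mouse m6 (adjusted p = 0.0819). The interaction was 1.73 (95% interval 0.68 to 2.78; unadjusted p = 0.00333, adjusted p = 0.333). FABP3 is also a muscle protein, and skeletal muscle markers were read beside it: 12 tested markers summed to 4.04 to 1510 CPM in Cre- mice and 2.58 to 151 CPM in BATdKO mice at 8°C, with 0 called by edgeR, 10 at an unadjusted p under 0.05 and a median log2 fold change of -3.06. At 30°C the sums were 4.29 to 9790 CPM in Cre- and 21.3 to 691 CPM in BATdKO mice, and cold lowered 2 of the 12 (Actn3 and Myoz1) in Cre- mice and called 0 in BATdKO mice. The part of muscle in the values of Fabp3 was not tested.

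Fabp3 has a near-identical copy in its coding part, so that reads from there could be split between both, and its values carry that uncertainty. How reads were assigned was not examined, and the Fabp3 transcript has 238 further bases after the coding part, beyond the annotated extent of the copy. Fabp3-ps1, a processed pseudogene on chromosome 10 from 86731987 to 86732388 that is also a row of the table, matches 399 of the 402 coding bases of Fabp3 (99.3%). The differences stand at coding positions 40, 297 and 334, counted from the first base of the start codon, and the last 68 coding bases are the same in both. Coding positions 281 to 350 are given from the GENCODE vM21 transcripts, 5′ to 3′, because this stretch holds 2 of the 3 bases by which a read could be told apart; capitals mark them.
Fabp3: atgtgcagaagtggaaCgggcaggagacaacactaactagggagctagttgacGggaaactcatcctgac
Fabp3-ps1: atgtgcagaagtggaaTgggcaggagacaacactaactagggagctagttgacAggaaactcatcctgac

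Counts on Fabp3-ps1 followed those on Fabp3, with 10.6 to 32.7 pseudogene counts for every 100 Fabp3 counts in single libraries. The pseudogene rose with cold in BATdKO mice (log2 fold change 2.51, SE 0.47, adjusted p = 0.0015), and between genotypes at 8°C its log2 fold change was 1.32 (SE 0.43, adjusted p = 0.177). With both rows summed, levels at 8°C were 62.5 ± 30.0 CPM in BATdKO and 23.2 ± 4.72 CPM in Cre- mice (SD, n = 6), a ratio of 2.70 (two-sided exact permutation p = 0.00866). Fabp3 exons also share 81 bases with Zcchc17 on the other strand, and whether reads were counted by strand is not given in the sources used here. Zcchc17 stood at 17.8 to 28.2 CPM in all mice and was called in none of the 4 comparisons.

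**Figure D4:**
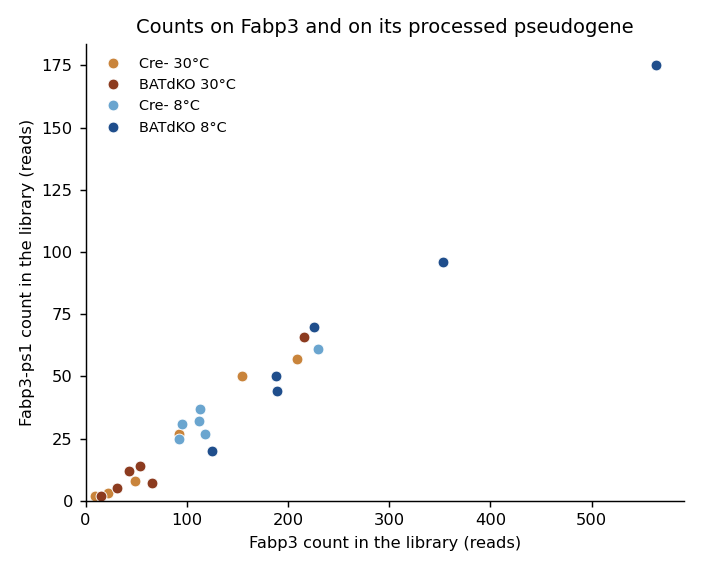
Reads counted on Fabp3 (horizontal axis) and on its processed pseudogene Fabp3-ps1 (vertical axis) in each of the 24 libraries, coloured by group. Pseudogene reads are mostly higher in libraries with more Fabp3 reads, at 10.6 to 32.7 for every 100.

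Fabp4 (ENSMUSG00000062515, chromosome 3 from 10204088 to 10208576), the adipocyte form known as aP2, had the highest ratio of highest to lowest level of any member within each genotype at 30°C and was called in no comparison. Lowest, median and highest levels were 125, 571 and 2090 CPM in Cre- mice and 274, 1510 and 2510 CPM in BATdKO mice at 30°C, and 673, 1050 and 1510 CPM in Cre- mice and 792, 1660 and 2430 CPM in BATdKO mice at 8°C. The highest Cre- mouse at 30°C (m6) had 16.7 times the level of the lowest (m3). The log2 fold change between genotypes was 0.63 at 8°C (SE 0.47, adjusted p = 0.775) and 0.98 at 30°C (SE 0.48, adjusted p = 0.478). Without Cre- mouse m6, Fabp4 passed at 30°C with a log2 fold change of 1.66 (adjusted p = 0.0489).

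Fabp5 (ENSMUSG00000027533, chromosome 3 from 10012548 to 10016607), the epidermal form, which lies near Fabp4 on the same chromosome, had means of 65.7 ± 14.5, 88.4 ± 20.0, 96.6 ± 13.3 and 96.1 ± 17.6 CPM (SD, n = 6) in Cre- at 30°C, BATdKO at 30°C, Cre- at 8°C and BATdKO at 8°C. Cold raised it 1.45-fold in Cre- mice (log2 fold change 0.54, SE 0.15, adjusted p = 0.0229), a call that held whichever mouse was left out. In BATdKO mice the change was 0.12 (95% interval -0.16 to 0.4). At 30°C its log2 fold change between genotypes was 0.41 (unadjusted p = 0.0089, adjusted p = 0.3), and it passed without Cre- mouse m6 (log2 fold change 0.56, adjusted p = 0.0352).

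Within libraries, Fabp3 had 1.93 ± 0.666 counts for every 100 of Fabp4 (SD, n = 6) in Cre- mice and 0.635 ± 0.187 in BATdKO mice at 30°C, and 1.81 ± 0.515 in Cre- mice and 2.96 ± 0.859 in BATdKO mice at 8°C. BATdKO mice at 30°C, at most 0.821, lay below every other mouse, and the genotypes at 8°C overlapped. Fabp5 had means of 17.3, 9.30, 9.83 and 6.54 counts for every 100 of Fabp4 in the 4 groups in the same order, with wide overlap.

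**Figure D5:**
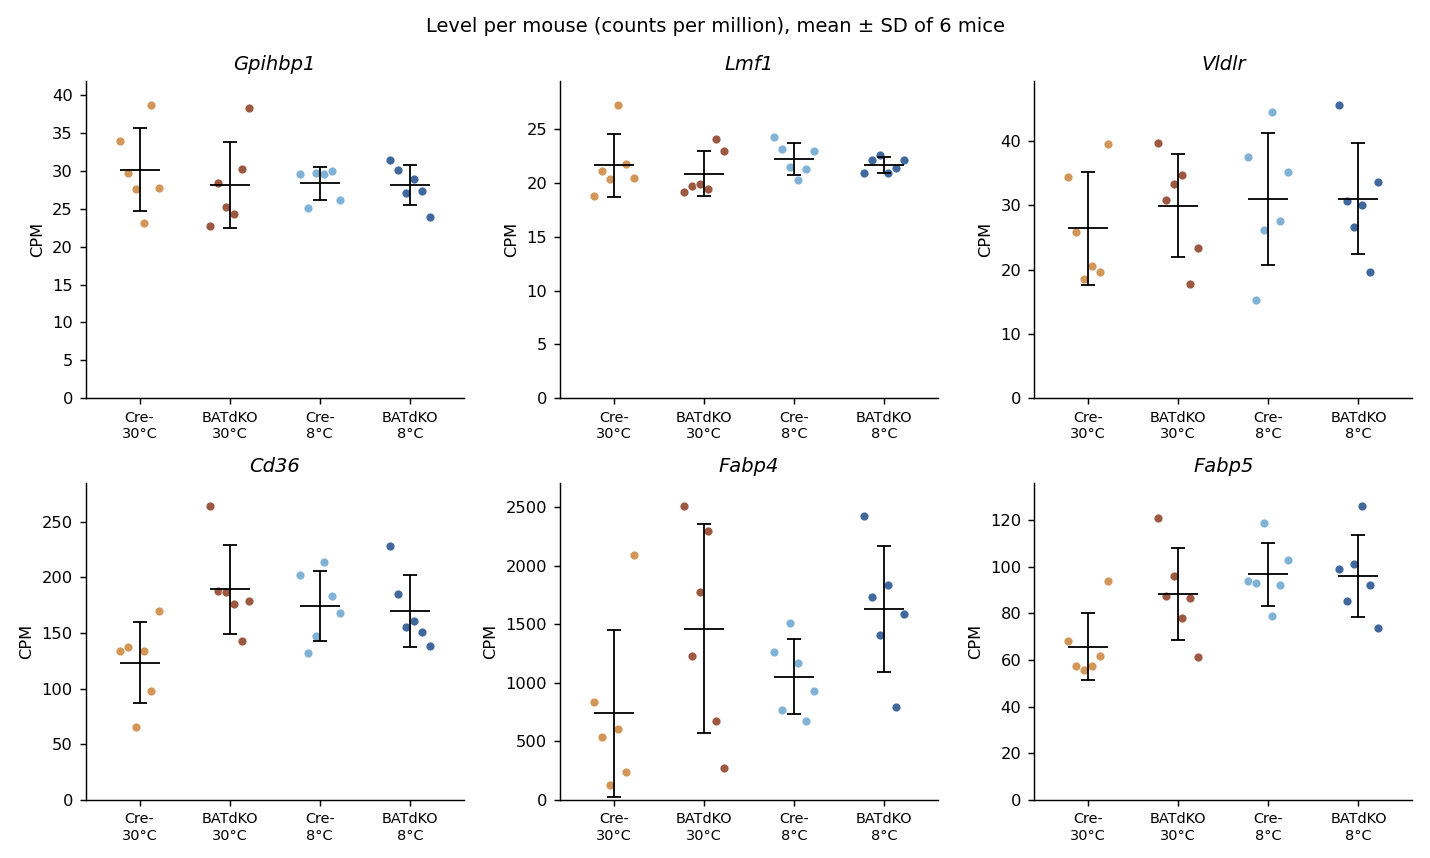
CPM per mouse (points; vertical axes start at 0) for the 6 members not called between genotypes at 8°C, in the 4 groups of 6 mice, with mean and SD as bars. Cd36 and Fabp5 have their lowest means in Cre- mice at 30°C, Gpihbp1 and Lmf1 keep about the same level in all groups, and Fabp4 is spread from 125 to 2510 CPM among the mice at 30°C.

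The fit was repeated without both mice m6 at 30°C, the libraries with the outlying Tbl1xr1 levels. Cre- mouse m6 also had the highest levels of its group for Lpl (812 CPM), Cd36 (170 CPM), Fabp4 (2090 CPM) and Fabp5 (93.9 CPM). The same held for Angptl4 (109 CPM), Vldlr (39.6 CPM) and Fabp3 (21.5 CPM). BATdKO mouse m6 had the lowest of its group for Lpl (299 CPM), Angptl4 (55.6 CPM), Fabp3 (2.25 CPM), Fabp4 (274 CPM) and Fabp5 (61.3 CPM). Leaving both out, a choice made after seeing the data, by itself moves these differences upward, so calls in this fit are no independent support. Lpl (log2 fold change 0.91, adjusted p = 0.0151), Cd36 (0.77, adjusted p = 0.0188), Fabp4 (1.87, adjusted p = 0.00695) and Fabp5 (0.63, adjusted p = 0.0062) were then all higher in BATdKO mice at 30°C, where 4.0% of the 12500 genes tested were called (500 genes). The other members were not called at 30°C in that fit: log2 fold changes were 0.37 for Angptl4, 0.27 for Fabp3, 0.35 for Vldlr, -0.04 for Lmf1, -0.28 for Gpihbp1 (unadjusted p = 0.0133, adjusted p = 0.191) and -0.37 for Slc27a1. In the same fit cold in Cre- mice called 7 members (13.2% of all genes, 1651), with Lpl (0.92, adjusted p = 0.00351), Fabp3 (1.11, adjusted p = 0.0454) and Fabp4 (1.17, adjusted p = 0.0414) added. That fit also called 4 members between genotypes at 8°C (2.59% of all genes) and 3 for cold in BATdKO mice (6.13%). For the interaction it called no member, with 44 genes called. Interactions smaller in size than with all mice were 0.1 for Lpl, 0.38 for Angptl4, 1.13 for Fabp3, -0.66 for Slc27a1 and 0.0 for Lmf1. Larger in size were -0.82 for Cd36, -1.24 for Fabp4, -0.64 for Fabp5, 0.26 for Gpihbp1 and -0.4 for Vldlr.

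Promoter sequences were shown for Fabp3 and Slc27a1, which moved in opposite directions between the genotypes at 8°C. RefSeq windows of 250 bases before to 50 after a start site were in the table for 5 members (8 windows: Lmf1 and Fabp3 1 each, Cd36 1, Vldlr 2 and Slc27a1 3). The letters TGACGT, part of the element that cAMP-responsive factors bind, were searched on both strands and were found in 7.51% of all 32851 windows. Among the members' 8 windows they stood only in that of Fabp3, starting 149 bases before the start site. The element AGGTCA of nuclear receptors, in 16.3% of all windows on either strand, was found once, in the window of Cd36. GGGCGG, a GC box, stood on either strand in 35.7% of all windows and in 5 of the members' 8, but in neither of those printed here. The window of Fabp3 is chr4:130308488-130308787 (GRCm38.p6, + strand) and that of the first Slc27a1 start is chr8:71568621-71568920 (+ strand); both are printed 5′ to 3′ with TGACGT in capitals.
Fabp3: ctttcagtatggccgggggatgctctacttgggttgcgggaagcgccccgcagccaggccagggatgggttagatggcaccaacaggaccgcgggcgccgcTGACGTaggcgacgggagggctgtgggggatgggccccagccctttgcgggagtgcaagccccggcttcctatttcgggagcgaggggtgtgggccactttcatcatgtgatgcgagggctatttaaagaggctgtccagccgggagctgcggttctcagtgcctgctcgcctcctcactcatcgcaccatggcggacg
Slc27a1: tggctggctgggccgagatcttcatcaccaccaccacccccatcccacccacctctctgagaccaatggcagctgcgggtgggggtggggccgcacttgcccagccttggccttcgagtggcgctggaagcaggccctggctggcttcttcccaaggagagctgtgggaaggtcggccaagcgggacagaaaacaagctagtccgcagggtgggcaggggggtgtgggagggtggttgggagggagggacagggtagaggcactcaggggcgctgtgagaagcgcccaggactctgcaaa

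Genes around the members were read from lists of the same pathway. Of 17 tested genes of LPL maturation, cofactors and regulators, only Pcsk5, a proprotein convertase that cleaves LPL and ANGPTL proteins, was called between genotypes at 8°C, at 9.55 ± 2.69 CPM in BATdKO and 6.37 ± 0.751 CPM in Cre- mice (SD, n = 6; log2 fold change 0.53, SE 0.15, adjusted p = 0.0912). For cold, Hspg2, the heparan sulfate proteoglycan perlecan, was called in BATdKO mice (0.36, adjusted p = 0.0946) and none in Cre- mice. Of 7 tested lipoprotein receptors, Sorl1, a sorting receptor that binds LPL, resembled Slc27a1 in direction: it was lower in BATdKO than in Cre- mice at 8°C (14.2 ± 4.13 against 37.8 ± 10.5 CPM; log2 fold change -1.40, SE 0.25, adjusted p = 0.00263), with no overlap. Cold raised Sorl1 in both genotypes, by 2.08 in Cre- mice (adjusted p = 6.81e-06) and 1.79 in BATdKO mice (adjusted p = 0.000373). The likeness to Slc27a1 is limited to 8°C. At 30°C Sorl1 had 9.1 ± 4.29 CPM in Cre- and 4.15 ± 1.61 CPM in BATdKO mice, without a call, and Slc27a1 had means of 7.42 and 6.87 CPM.

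Of 14 tested genes for other transporters, binding proteins and acyl-CoA activation, Acsl5, an acyl-CoA synthetase, was the only one called between genotypes at 8°C, lower in BATdKO mice (141 ± 18.8 against 199 ± 29.6 CPM; log2 fold change -0.49, SE 0.10, adjusted p = 0.00679). Cold raised Acsl5 in Cre- (0.90, adjusted p = 1.15e-06) and BATdKO mice (0.60, adjusted p = 0.000373), and raised Acot1 and Acsl1 in Cre- mice (0.44 and 0.41, adjusted p = 0.0482 and 0.0667). Of 24 tested genes of fatty acid sensing by the PPAR receptors, of which many members are known targets, 1 was called between genotypes at 8°C. This was Cidec, a lipid droplet protein, at 157 ± 29.8 CPM in BATdKO and 77.4 ± 10.8 CPM in Cre- mice, without overlap (log2 fold change 1.02, SE 0.26, adjusted p = 0.049). Cold raised 8 of the 24 and lowered 1 in Cre- mice, and raised 6 and lowered 1 in BATdKO mice. Gk (glycerol kinase; 1.25 and 1.26) and the lipid droplet gene Plin5 (0.76 and 0.67) rose in both, and Adipoq fell in both (-0.58 and -0.93).

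ANGPTL4 is also induced by glucocorticoids and by low oxygen, and both lists were read beside it. Of 12 tested glucocorticoid response genes, cold raised 4 in Cre- mice and raised 3 and lowered 1 in BATdKO mice. Sgk1 (0.95 and 0.72), Cdkn1a (0.77 and 1.31) and Dusp1 (0.97 in each) rose in both genotypes, and Zbtb16, a transcription factor, fell in BATdKO mice (-0.80, adjusted p = 0.0214). With cold, 7 of the 12 had a log2 fold change above 0 and 5 below 0 in each genotype. The part of glucocorticoids or of low oxygen in the levels of Angptl4 was not tested. Between genotypes at 8°C, Cdkn1a was the only one called (0.54, adjusted p = 0.0874). Of 8 tested hypoxia response genes, Pfkfb3, a regulator of glycolysis, was higher in BATdKO mice at 8°C (96.2 ± 21.1 against 53.6 ± 9.64 CPM; log2 fold change 0.84, adjusted p = 0.00568), and with cold 3 were raised and 1 lowered in Cre- mice and 3 raised in BATdKO mice.

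The genes whose levels most resembled those of Lpl over the 24 mice were Cidec (Pearson r of log2 CPM 0.948, Spearman rho 0.897), Sucla2 (0.926 and 0.936), Lpin1 (0.917 and 0.925), Cox8b (0.915 and 0.887) and Lpgat1 (0.903 and 0.923). Those most like Angptl4 were Rgs2 (0.933 and 0.936), Fam13a (0.876 and 0.861), Chst15 (0.868 and 0.821), Zmat1 (0.856 and 0.825) and Il17re (0.845 and 0.856). These 10 genes were picked as the highest of all tested genes, so the values are a description without a test, and the mice share 4 groups that differ in temperature and label. No gene was in both sets of 5. Between Lpl and Angptl4 themselves r was -0.032 over the 24 mice, but 0.712 after the mean of each group was taken out.

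Markers of the cells that could carry these transcripts were read last. Cold raised 7 of 11 tested brown adipocyte markers in each genotype, among them Dio2 (log2 fold change 4.56 in Cre- and 4.05 in BATdKO mice) and Ucp1 (3.10 and 2.54), and all 4 tested red cell genes in each. It lowered 3 of 9 general adipocyte markers in each genotype and raised none: Lep (leptin; -3.43 in Cre- and -2.75 in BATdKO mice), Cfd (-1.33 and -2.71) and Adipoq. Of 9 tested fibroblast and progenitor markers, cold lowered Pdgfra (-0.84, adjusted p = 0.0841) and Col3a1 (-0.73, adjusted p = 0.099) in BATdKO mice, and no other comparison called any. Between genotypes at 8°C, the brown adipocyte marker Adrb3, the receptor for noradrenaline in BAT, was lower in BATdKO mice (24.7 ± 7.67 against 49.0 ± 6.13 CPM; log2 fold change -0.98, adjusted p = 0.0592), and of 9 general adipocyte markers Cebpa was higher (0.25, adjusted p = 0.0871) and Cfd lower (-1.67, adjusted p = 0.0713). No macrophage marker of 11 was called in any comparison, and Ighm, the only B cell marker tested, was higher in BATdKO mice at 8°C (20.2 ± 4.64 against 7.24 ± 0.674 CPM). Summed brown adipocyte markers ranged from 2310 to 3770 CPM in Cre- and from 2530 to 3400 CPM in BATdKO mice at 8°C, and summed endothelial markers from 243 to 313 and from 237 to 280 CPM. The part of these cells in the members' differences was not tested.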

How the data were processed

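BAT RNA of 24 mice was sequenced as 3′ tags (QuantSeq 3′ mRNA-Seq FWD). The deposited table holds raw counts, which the authors made with STAR on GRCm38 and Rsubread after trimming; 12608 of its 12615 genes were matched to a symbol. The annotation release, the use of strand and the filter behind the table are not given in the sources used here. The study removed outliers that its text does not name, so all libraries were used. Columns were matched to mice by the name in the sample description, and mice m1 to m6 are in accession order and pair nothing. No 2 libraries were identical. Nothing in the labels says more of separate litters, so p-values measure the spread between these mice.

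R 4.3.3, edgeR 4.0.16 and limma 3.58.1 were run on the deposited counts. After TMM normalization and filterByExpr on the 4 groups (12485 genes kept), a quasi-likelihood model with a mean per group was fitted to all 24 mice, with Benjamini-Hochberg adjustment over all tested genes and a threshold of 0.1, as in the study. The standard error is the absolute log2 fold change over the square root of F, and 95% intervals are 1.96 standard errors to each side. These intervals are approximate and somewhat narrower than the F test implies. For Lpl between genotypes at 30°C the interval was 0.01 to 0.99, although the unadjusted p of the F test was 0.0556. Single values were tested by exact permutation over 924 assignments, two-sided, on log2 CPM for members and on CPM for the summed Fabp3 rows. Log2 CPM used a prior count of 0.5. Tested on simulated data for genotype at 8°C over 12485 genes, edgeR called 173 and DESeq2 172 of 200 genes changed by 1 in log2, with 14 and 18 false calls. The simulation gave each gene 1 dispersion in all 24 libraries. Real spreads could differ by temperature: the SD of log2 CPM of Fabp4 was 1.42 and 1.23 at 30°C and 0.447 and 0.542 at 8°C (Cre- and BATdKO). The simulated rates do not cover such genes.

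Alternatives were DESeq2 1.42.0, RLE normalization, no filter, a mean count of at least 10, robust dispersion, only the groups compared, and leaving out each mouse in turn. Leaving out both mice m6 at 30°C was chosen after seeing the data. The members and lists were chosen with earlier results of these data known. All members are named in each comparison. Other genes named are, per pathway list and comparison, up to 4 called with the smallest p, markers needed beside a result, the 5 genes most like Lpl and Angptl4, the deleted genes and Ucp1. Fabp3-ps1 and Zcchc17, which share sequence with Fabp3, were chosen after its values were seen. Positions and transcripts are from GENCODE vM21, and promoters from RefSeq (GRCm38.p6).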

Additional observations from a re-analysis of the deposited data

Results flagged for a closer look

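For the 10 members in 4 groups, 40 sets of 6 mice were looked at. In 5 of them, 1 mouse stood apart from the other 5 by Dixon's criterion at 95% on CPM. Normal values meet that criterion in about 1 set of 20. CPM need not be normal and the 40 sets share the same 24 libraries, so that rate does not measure chance here. Of the 5 sets, 4 were in Cre- mice at 30°C. Mouse m6 was highest for Fabp4 (2090 CPM) and Fabp5 (93.9 CPM), and it is also the mouse with the highest Tbl1xr1 and Ucp1 of that group. Mouse m4, the shallowest library, was highest for Lmf1 (27.3 CPM, from 20 counts), and mouse m1 was highest for Slc27a1 (12.5 CPM). In BATdKO mice at 30°C, mouse m1 was highest for Cd36 (264 CPM). No mouse at 8°C was set apart in this way.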

How the results depend on the processing

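No paired analysis was possible because the labels' mouse numbers pair no mice between groups. RLE normalization, no filter on low counts and a mean count of at least 10 kept the direction and the side of the threshold of all 10 members in all 5 comparisons. Robust dispersion left 2 members called between genotypes at 8°C, Angptl4 and Slc27a1. Fitting only the groups compared gave 477 genes there in place of 227 and kept all 4 members called. Their adjusted p was 0.000126 for Lpl, 0.000141 for Angptl4, 0.00167 for Fabp3 and 0.00269 for Slc27a1. The same setting lost the call of Cd36 for cold in Cre- mice (adjusted p = 0.128). DESeq2 called 90 genes and 1 member between genotypes at 30°C in place of 0, and 51 genes for the interaction in place of 12, where robust dispersion called 21. Without both mice m6 at 30°C, added after seeing the data, these were 500 genes and 4 members at 30°C, 7 members and 1651 genes (in place of 1143) for cold in Cre- mice and 44 genes for the interaction. Leaving out 1 mouse at a time gave 138 to 276 genes and 1 to 4 members between genotypes at 8°C (138 genes without BATdKO mouse m5, 1 member without BATdKO mouse m1, 2 without Cre- mouse m5), 0 to 369 genes and 0 to 4 members at 30°C (both highest without Cre- mouse m6), 574 to 1069 genes for cold in BATdKO mice (lowest without BATdKO mouse m4 at 8°C) and 7 to 37 genes for the interaction. The cause of these moves was not tested.

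Directions changed only for members that were not called. Leaving out 1 mouse, the log2 fold change between genotypes at 8°C ranged from -0.14 to 0.02 for Cd36, -0.10 to 0.06 for Fabp5, -0.05 to 0.03 for Gpihbp1 and -0.17 to 0.10 for Vldlr. At 30°C it ranged from -0.00 to 0.27 for Angptl4, -0.76 to 0.09 for Fabp3, -0.05 to 0.02 for Lmf1 and -0.29 to 0.12 for Slc27a1. For cold in BATdKO mice it ranged from -0.07 to 0.38 for Fabp4, -0.06 to 0.09 for Gpihbp1, -0.13 to 0.15 for Slc27a1 and -0.10 to 0.12 for Vldlr, and for the interaction from -0.06 to 0.01 for Lmf1. DESeq2 gave 0.01 for Lmf1 at 30°C and -0.00 for Slc27a1 with cold in BATdKO mice. Without both mice m6 the values were 0.27 for Fabp3 at 30°C, 0.09 for Gpihbp1, -0.05 for Vldlr and -0.07 for Fabp4 with cold in BATdKO mice, and 0.00 for Lmf1 in the interaction. Low counts limit Slc27a1, with 12 to 132 per library at 8°C, and the shallowest library held 9 counts of Fabp3.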
